A study of Homo sapiens with 6 samples.

Results

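The genes described here are 10 members of the EGF receptor family and its ligands, taken by symbol from a table of 27958 genes: the ligand genes TGFA, AREG, EREG, HBEGF, BTC and NRG1 and the receptor genes EGFR, ERBB2, ERBB3 and ERBB4. All 10 were found, each in 1 row. The set was chosen by a measured value, the lower TPM of TGFA in the NRP2-high columns of these same libraries, so the TGFA values are given as a description without a test. RNA was sequenced from PC3, a human prostate cancer cell line from a bone metastasis that grows without androgen. Both groups are unmodified PC3 cells that were stained for NRP2 (neuropilin-2, a surface receptor that binds VEGF and semaphorins) and sorted by flow cytometry, 1 group for high and the other for low NRP2, then grown for up to 2 weeks with RNA taken at different passages. Each group has 3 libraries, called here by the numbers in the table: S38, S39 and S40 are NRP2-high, and S35, S36 and S37 are NRP2-low. The cells come from 1 line, and nothing says that the libraries of a group came from separate sorts or cultures, so a p-value here reflects only how much these samples vary, which may be technical.

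EGF family ligands are made as membrane-anchored precursors, and metalloproteases of the ADAM family release many of them as soluble factors. TGFA (transforming growth factor alpha) and AREG (amphiregulin) bind EGFR, and HBEGF (heparin-binding EGF-like growth factor), EREG (epiregulin) and BTC (betacellulin) bind both EGFR and ERBB4. NRG1 (neuregulin 1) binds ERBB3 and ERBB4. ERBB2 has no known ligand of its own and acts as the partner of the other receptors, and ERBB3 has little kinase activity and signals through its partners. Binding pairs the receptors and starts the RAS and ERK kinase cascade and the PI3-kinase pathway, which drive growth and survival of epithelial cells.

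Levels are given in TPM, a share of the library's transcripts corrected for gene length. For each member that length is all its annotated exons merged, from 1648 bases for AREG to 13015 bases for ERBB4. This can be longer than the transcripts expressed, by a different factor for each gene. Levels of different genes within a library, and their ranks, shares and ratios, are therefore approximate. Comparisons of 1 gene between libraries use the same length throughout. A share falls when other transcripts take more of the library, and in these bulk samples fewer cells with a transcript and less of it per cell cannot be told apart. The libraries held 17551302 to 30726744 reads, NRP2-high between 21673710 and 23130636 and NRP2-low between 17551302 and 30726744. Mitochondrially encoded genes took 11.1% to 18.7% of the TPM in the NRP2-high libraries and 14.3%, 15.1% and 31.0% in NRP2-low libraries S35 to S37, so S37 stood apart. Of the 5 epithelial markers KRT8 and KRT18 were well expressed, and KRT19, EPCAM and CDH1 were under 1 TPM in every library. The summed level of the epithelial list was 433 to 759 TPM for NRP2-high cells and 405 to 694 TPM for NRP2-low cells. All 5 endothelial markers were under 1 TPM in every library, as were 4 of the 5 leukocyte markers in the table. The leukocyte list summed to 0.219 to 0.842 TPM for NRP2-high cells and 0.503 to 1.54 TPM for NRP2-low cells, and the 4 fibroblast markers to 0.618 to 2.97 TPM for NRP2-high cells and 0.0140 to 0.337 TPM for NRP2-low cells, with LUM the only one of them above 1 TPM in any library. The endothelial list summed to at most 0.114 TPM for NRP2-high cells and 0.168 TPM for NRP2-low cells. The part of these lists in the members' differences was not tested. NRP2, the gene of the sorted protein, measured 48.1, 42.5 and 16.6 TPM across NRP2-high libraries S38 to S40 and 7.55, 5.10 and 2.71 TPM across NRP2-low libraries S35 to S37.

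Of the 10 members, 9 passed the level filter of at least 1 TPM in at least 3 libraries, and 7 of these are tested here: TGFA led to the choice of the family, and ERBB4 passed the filter only through NRP2-high. Of these 7 members 0 passed the threshold (adjusted p under 0.05) with limma and 0 with limma voom on reads rebuilt from TPM and gene length, and 1 (AREG) had an unadjusted limma p under 0.05. Among all 15214 tested genes 0.835% passed with limma (0.486% downward and 0.348% upward), 1.31% passed with limma voom and 7.00% had an unadjusted limma p under 0.05. In the deposited TPM the groups did not overlap for 3 members (TGFA, BTC and ERBB4). TGFA led to the choice of the family, BTC was below the filter, and ERBB4 passed it only through NRP2-high. Their gaps are therefore descriptions. For all 7 tested members the groups overlapped. Over all genes tested, 12.0% had groups that did not overlap (8.83% with NRP2-high above, 3.14% with NRP2-high below). Of the 9 members that passed the filter, 7 had a log2 fold change above 0. The 9 include TGFA, chosen for its fall, and ERBB4, let in by the filter, so this count is a description. The share of all tested genes above 0 was not computed. The median of all 9 was 0.31, beside a median of 0.10 over all tested genes, which was -0.01 after each library was scaled by its median log ratio.

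TGFA was the member with the widest gap between the groups. TGFA (ENSG00000163235.15, GRCh38, chromosome 2, 70447280 to 70554193, minus strand) measured 1.58, 1.58 and 1.05 TPM across NRP2-high libraries S38 to S40 and 51.6, 53.8 and 36.8 TPM across NRP2-low libraries S35 to S37. Every NRP2-high library lay far below every NRP2-low library, and within each group the highest library was about 1.5 times the lowest (1.51 in NRP2-high, 1.46 in NRP2-low). The NRP2-high values rest on 118 reads in all and the NRP2-low values on 4582 reads. The mean was 1.40 ± 0.307 TPM in NRP2-high cells and 47.4 ± 9.25 TPM in NRP2-low cells (± SD, n = 3 each), a mean 33.8-fold lower in NRP2-high. On a log2(TPM + 1) scale, where changes of low values come out too small, the difference was -4.32 (SE 0.22), the 10th lowest of all tested genes. With 1 library left out it lay between -4.49 and -4.21. TGFA stayed detected in NRP2-high cells, with at least 32 reads in each library.

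BTC, a ligand of EGFR and ERBB4, was the least abundant ligand of the set and did not pass the filter. BTC (ENSG00000174808.11, chromosome 4, 74744759 to 74794686, minus strand) measured 0.0650, 0.194 and 0.231 TPM across NRP2-high libraries S38 to S40, which is 1, 3 and 4 reads. Across NRP2-low libraries S35 to S37 it measured 1.09, 0.426 and 0.891 TPM, from 24, 7 and 14 reads. The groups did not overlap, on 8 reads in all from NRP2-high cells and 45 reads from NRP2-low cells. When no filter was applied limma gave it a log2 fold change of -0.62 (SE 0.17, adjusted p = 0.453).

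HBEGF, the ligand that is also the receptor of diphtheria toxin, was the most abundant ligand of the set in both groups. HBEGF (ENSG00000113070.7, chromosome 5, 140332843 to 140346631, minus strand) measured 137, 93.6 and 87.8 TPM across NRP2-high libraries S38 to S40 and 241, 145 and 112 TPM across NRP2-low libraries S35 to S37. S38 lay above S37, so the groups overlapped. Means of 106 ± 26.9 TPM in NRP2-high cells and 166 ± 67.1 TPM in NRP2-low cells (± SD, n = 3 each) gave a log2 fold change of -0.60 (SE 0.29, 95% interval -1.26 to 0.07, limma adjusted p = 0.778), so the difference was within the spread between libraries. Without the mitochondrially encoded genes, which weigh most on S37, HBEGF measured 154, 112 and 108 TPM across NRP2-high libraries S38 to S40. It then measured 282, 170 and 163 TPM across NRP2-low libraries S35 to S37, and the groups no longer overlapped (log2 fold change -0.69, limma adjusted p = 0.417). After median log-ratio scaling they did not overlap either, at 86.5 to 129 in NRP2-high and 135 to 235 in NRP2-low libraries (log2 fold change -0.72, limma adjusted p = 0.437).

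AREG had the largest upward difference of the members on the log2(TPM + 1) scale and did not pass the test. AREG (ENSG00000109321.10, chromosome 4, 74445134 to 74455009, plus strand) measured 16.6, 13.0 and 4.24 TPM across NRP2-high libraries S38 to S40, from 150, 118 and 43 reads. Across NRP2-low libraries S35 to S37 it measured 4.89, 2.29 and 1.63 TPM, from 63, 22 and 15 reads. S38 and S39 stood above all NRP2-low libraries, and S40 lay just under S35. Means of 11.3 ± 6.38 TPM in NRP2-high cells and 2.94 ± 1.72 TPM in NRP2-low cells (± SD, n = 3 each) gave a log2 fold change of 1.56 (SE 0.47, 95% interval 0.48 to 2.64, limma adjusted p = 0.394). Without S40 the log2 fold change was 2.09 and without S38 it was 1.21. With 1 library left out its limma adjusted p ran from 0.0710 (without S40) to 0.9998 (without S39). S40 is also the NRP2-high library with the lowest NRP2, and it was the lowest of its group for 8 of the 10 members. Whether AREG follows the level of NRP2 was not tested.

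EREG is the neighbour of AREG on chromosome 4. EREG (ENSG00000124882.3, 74365143 to 74388751, plus strand) measured 5.38, 5.22 and 1.94 TPM across NRP2-high libraries S38 to S40 and 7.27, 3.42 and 1.19 TPM across NRP2-low libraries S35 to S37. The groups overlapped over most of their range, and the NRP2-low libraries differed among themselves by 6.10 times. Means of 4.18 ± 1.94 TPM in NRP2-high cells and 3.96 ± 3.08 TPM in NRP2-low cells (± SD, n = 3 each) gave a log2 fold change of 0.18 (SE 0.50, 95% interval -0.95 to 1.31, limma adjusted p = 0.959). The sign of this difference turned without S38 (-0.012) and without S37 (-0.31).

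NRG1 (ENSG00000157168.18, chromosome 8, 31639386 to 32764022, plus strand) measured 29.8, 27.5 and 25.6 TPM across NRP2-high libraries S38 to S40 and 29.6, 21.2 and 16.7 TPM across NRP2-low libraries S35 to S37. The NRP2-high libraries were close together, and S35 lay among them. Means of 27.6 ± 2.13 TPM in NRP2-high cells and 22.5 ± 6.57 TPM in NRP2-low cells (± SD, n = 3 each) gave a log2 fold change of 0.32 (SE 0.22, 95% interval -0.18 to 0.82, limma adjusted p = 0.876). Of the 4 other family ligands in the table, only NRG2 passed the filter, at 5.55 ± 0.898 TPM in NRP2-high cells and 7.31 ± 2.69 TPM in NRP2-low cells (log2 fold change -0.29, limma adjusted p = 0.895). EGF itself averaged 0.0287 ± 0.00186 TPM in NRP2-high cells and 0.0191 ± 0.0165 TPM in NRP2-low cells (± SD, n = 3 each), and EPGN and NRG4 were also below the filter.

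**Figure D1:**
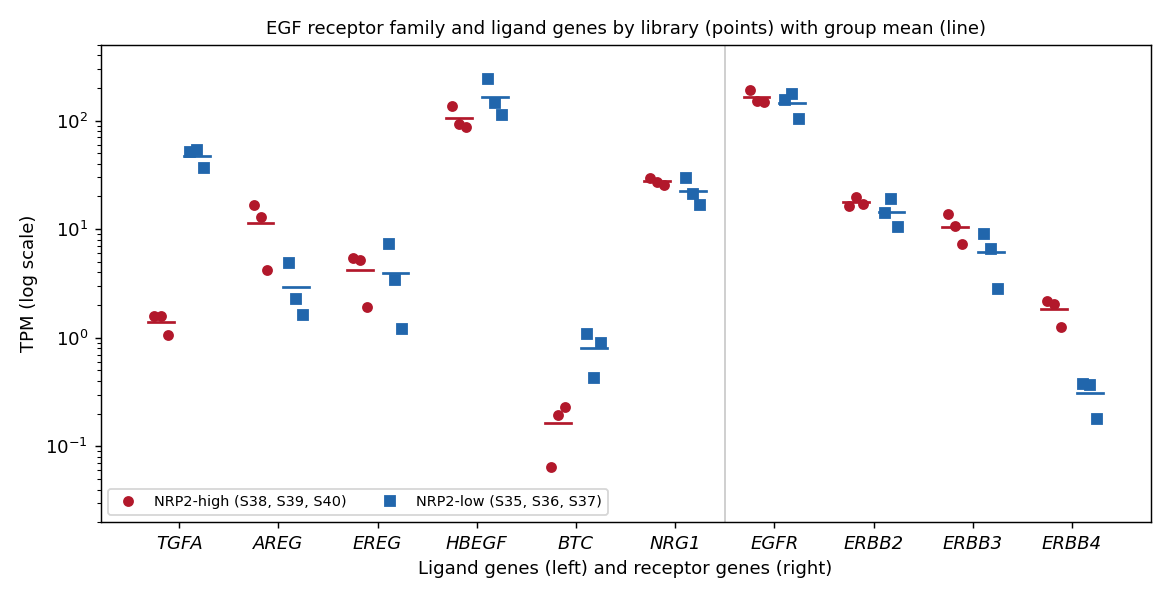
TPM on a log axis of the 10 member genes, with 1 point per library (NRP2-high red circles, left in each pair; NRP2-low blue squares, right) and the group mean as a line. TGFA lies at 1.05 to 1.58 TPM for NRP2-high cells and 36.8 to 53.8 TPM for NRP2-low cells, ERBB4 lies the other way, and EGFR and HBEGF are the highest genes in both groups.

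The ligand genes therefore made up different shares of the ligand transcripts in the 2 groups. The 5 EGFR-binding ligands TGFA, AREG, EREG, HBEGF and BTC summed to 123 ± 33.8 TPM in NRP2-high cells and 221 ± 78.0 TPM in NRP2-low cells (± SD, n = 3 each), with ranges of 95.3 to 161 and 153 to 306 TPM that overlapped. TGFA took 0.986% to 1.39% of this sum in NRP2-high and 16.9% to 26.3% in NRP2-low libraries. AREG took 4.46% to 11.5% in NRP2-high and 1.07% to 1.60% in NRP2-low libraries, and these ranges did not overlap. HBEGF took most of the sum in every library, 82.4% to 92.2% in NRP2-high and 70.7% to 78.8% in NRP2-low libraries. Shares of 1 sum are tied to each other, so the higher shares of AREG and HBEGF in NRP2-high contain the lower share of TGFA. Without TGFA the sum was 159, 112 and 94.2 TPM in S38 to S40 and 255, 151 and 116 TPM in S35 to S37. HBEGF made up 137, 93.6 and 87.8 TPM of this in NRP2-high and 241, 145 and 112 TPM in NRP2-low. Its share of the sum without TGFA was therefore lower, not higher, in NRP2-high, while that of AREG stayed higher. These shares are descriptions and were not tested.

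**Figure D2:**
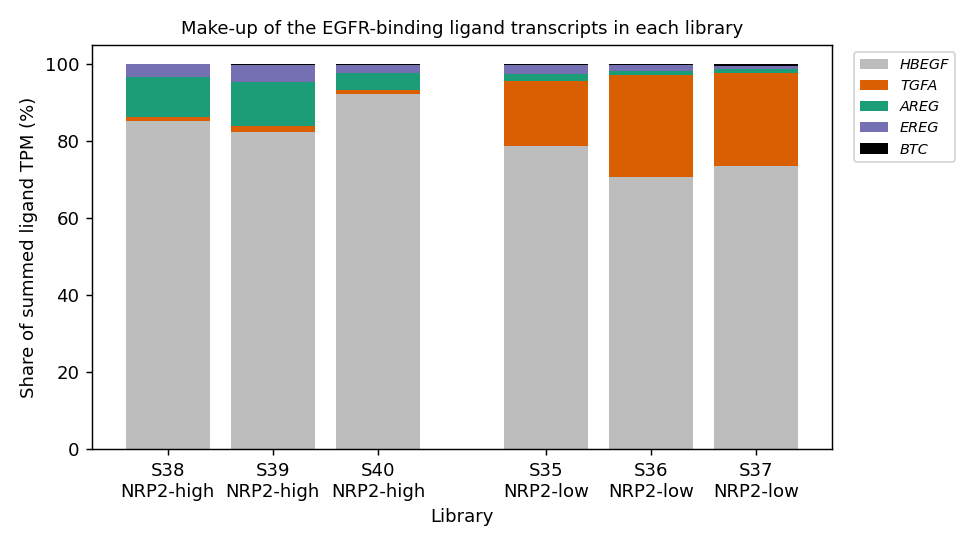
Share of the summed TPM of the 5 EGFR-binding ligands, in percent, for each library (NRP2-high left, NRP2-low right). TGFA (orange) takes at most 1.39% in NRP2-high and at least 16.9% in NRP2-low libraries, and HBEGF (grey) is the main part in all 6.

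Ratios between 2 members within a library do not depend on how the library was scaled. The ratios that follow were chosen after the values were seen and are given without a test. The AREG to EREG ratio was 3.10, 2.50 and 2.19 in NRP2-high libraries S38 to S40 and 0.672, 0.669 and 1.37 in NRP2-low libraries S35 to S37. AREG thus had the higher TPM of the pair in every NRP2-high library and in S37. The HBEGF to TGFA ratio was 86.5, 59.4 and 83.7 in NRP2-high and 4.67, 2.69 and 3.05 in NRP2-low libraries. The HBEGF to EGFR ratio was 0.711, 0.625 and 0.593 in NRP2-high and 1.56, 0.827 and 1.09 in NRP2-low libraries. These 3 ratios did not overlap between the groups. Such ratios were common among the members and do not mark out these 3: 30 of all 45 pairs had them, and 21 of the 36 pairs without TGFA. These pairs share members, among them ERBB4 and the barely detected BTC. The share over pairs of other genes was not computed, so the counts are no result about the family.

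Promoter windows of the 5 EGFR-binding ligand genes are shown because TGFA and AREG stood at opposite ends of the members' differences on the log2(TPM + 1) scale, at -4.32 and 1.56. Each runs from 250 bases before to 50 bases after the gene start that RefSeq gives (GRCh38.p14), 5′ to 3′ on the strand of the gene. Capitals mark every match on either strand to 4 motifs: the kB motif of NF-kB factors, the AP-1 motif TGANTCA, the GC box GGGCGG and the TATA box TATAAA. RefSeq windows were found for 8 of the 10 members, all but ERBB3 and NRG1. The TGFA window is the first of 2 in the table, and its gene start lies 367 bases inside the start of the gene in the deposited table. For the BTC window it lies 163 bases inside. The kB matches of these 2 windows therefore lie within the genes as the deposited table places them.
TGFA promoter window, chr2:70553777-70554076, minus strand: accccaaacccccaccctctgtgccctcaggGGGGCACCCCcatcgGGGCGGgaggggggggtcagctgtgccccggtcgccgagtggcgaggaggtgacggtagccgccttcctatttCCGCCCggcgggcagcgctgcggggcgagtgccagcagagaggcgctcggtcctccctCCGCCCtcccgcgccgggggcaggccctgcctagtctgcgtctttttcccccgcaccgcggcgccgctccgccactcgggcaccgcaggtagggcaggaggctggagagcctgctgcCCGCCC
BTC promoter window, chr4:74794474-74794773, minus strand: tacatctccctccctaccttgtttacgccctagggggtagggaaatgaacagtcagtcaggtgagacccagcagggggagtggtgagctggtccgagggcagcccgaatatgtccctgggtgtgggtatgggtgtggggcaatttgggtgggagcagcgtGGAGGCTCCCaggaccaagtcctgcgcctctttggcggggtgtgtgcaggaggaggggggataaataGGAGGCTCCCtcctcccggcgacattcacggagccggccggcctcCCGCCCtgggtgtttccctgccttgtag
HBEGF promoter window, chr5:140346554-140346853, minus strand: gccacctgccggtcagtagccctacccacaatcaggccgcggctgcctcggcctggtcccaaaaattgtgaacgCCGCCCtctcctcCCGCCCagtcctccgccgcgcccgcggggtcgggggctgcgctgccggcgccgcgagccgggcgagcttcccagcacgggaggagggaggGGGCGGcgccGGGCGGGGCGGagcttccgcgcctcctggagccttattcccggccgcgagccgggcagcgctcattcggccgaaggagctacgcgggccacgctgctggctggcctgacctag
AREG promoter window, chr4:74444886-74445185, plus strand: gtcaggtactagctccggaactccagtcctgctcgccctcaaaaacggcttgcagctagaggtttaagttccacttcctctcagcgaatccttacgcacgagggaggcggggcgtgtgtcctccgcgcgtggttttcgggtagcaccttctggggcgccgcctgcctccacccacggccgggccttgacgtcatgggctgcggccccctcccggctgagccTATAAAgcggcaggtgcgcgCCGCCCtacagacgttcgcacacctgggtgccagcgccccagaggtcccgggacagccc
EREG promoter window, chr4:74364895-74365194, plus strand: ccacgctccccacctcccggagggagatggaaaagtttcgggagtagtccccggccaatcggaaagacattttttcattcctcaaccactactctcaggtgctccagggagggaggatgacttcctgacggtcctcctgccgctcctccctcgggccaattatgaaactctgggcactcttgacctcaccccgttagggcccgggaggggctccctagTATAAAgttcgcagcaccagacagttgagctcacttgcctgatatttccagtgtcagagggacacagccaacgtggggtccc
The TGFA window has 75.3% G and C, 1 kB match that begins 219 bases before the gene start and 4 GC boxes, and holds no TATA box. The BTC window has 2 kB matches, 90 and 23 bases before the start, and 1 GC box. The HBEGF window has 75.0% G and C and 5 GC boxes, 2 of which overlap. AREG and EREG, which lie side by side, each have a TATA box, 29 and 32 bases before the start, and AREG also has 1 GC box. Of the 10 windows of the 8 members, only 1 of the 2 TGFA windows and the BTC window held a kB match, where 11.3% of all 35116 windows hold one. The second TGFA window in the table, not printed here, held 0 matches to any of the 4 motifs. GC boxes were in 44.95% of all windows, TATA boxes in 11.5% and AP-1 motifs in 7.71%. A match describes the letters of the window and is no evidence of binding.

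Among the receptors EGFR was by far the most abundant. EGFR (ENSG00000146648.17, chromosome 7, 55019021 to 55207337, plus strand) measured 193, 150 and 148 TPM across NRP2-high libraries S38 to S40 and 154, 175 and 103 TPM across NRP2-low libraries S35 to S37. The groups overlapped, with the lowest value in S37. Means of 164 ± 25.4 TPM in NRP2-high cells and 144 ± 37.3 TPM in NRP2-low cells (± SD, n = 3 each) gave a log2 fold change of 0.21 (SE 0.22, 95% interval -0.30 to 0.72, limma adjusted p = 0.896), which was -0.018 without S37. EGFR took 82.3% to 85.6% of the summed TPM of the 4 receptors in NRP2-high and 86.8% to 88.4% in NRP2-low libraries. The receptor sum was 194 ± 27.7 TPM in NRP2-high cells and 165 ± 43.8 TPM in NRP2-low cells (± SD, n = 3 each).

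ERBB2 (HER2) lay between 14.0 and 19.6 TPM in all libraries but S37. ERBB2 (ENSG00000141736.13, chromosome 17, 39687914 to 39730426, plus strand) measured 16.5, 19.6 and 16.9 TPM across NRP2-high libraries S38 to S40 and 14.0, 18.9 and 10.4 TPM across NRP2-low libraries S35 to S37. Means of 17.7 ± 1.68 TPM in NRP2-high cells and 14.4 ± 4.25 TPM in NRP2-low cells (± SD, n = 3 each) gave a log2 fold change of 0.31 (SE 0.23, 95% interval -0.21 to 0.83, limma adjusted p = 0.889). MIEN1 and PGAP3 overlap ERBB2 on the other strand and averaged 45.3 TPM and 6.19 TPM over the 6 libraries. Whether the counting used strand was not stated, so some reads of ERBB2 and these genes may not be told apart.

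ERBB3 (ENSG00000065361.15, chromosome 12, 56076799 to 56103505, plus strand) measured 13.7, 10.7 and 7.31 TPM across NRP2-high libraries S38 to S40 and 9.07, 6.52 and 2.84 TPM across NRP2-low libraries S35 to S37. The NRP2-high values were higher on average, but S40 lay under S35. Means of 10.5 ± 3.18 TPM in NRP2-high cells and 6.14 ± 3.13 TPM in NRP2-low cells (± SD, n = 3 each) gave a log2 fold change of 0.76 (SE 0.37, 95% interval -0.08 to 1.61, limma adjusted p = 0.764). Without S37 the log2 fold change was 0.37.

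ERBB4, a receptor for neuregulins and for HBEGF, was the receptor whose groups did not overlap. ERBB4 (ENSG00000178568.14, chromosome 2, 211375717 to 212538841, minus strand) measured 2.18, 2.04 and 1.25 TPM across NRP2-high libraries S38 to S40, from 155, 146 and 100 reads. Across NRP2-low libraries S35 to S37 it measured 0.373, 0.369 and 0.179 TPM, from 38, 28 and 13 reads. Every NRP2-high library was above 1 TPM and every NRP2-low library below, so ERBB4 passed the filter only through NRP2-high and had to differ. It averaged 1.82 ± 0.501 TPM in NRP2-high cells and 0.307 ± 0.111 TPM in NRP2-low cells (± SD, n = 3 each), 5.94-fold higher in NRP2-high. The log2(TPM + 1) difference was 1.10 (SE 0.27), and on rebuilt reads, without a pseudocount of 1 TPM, it was 2.43 (SE 0.33). Both are given as descriptions, since the filter let ERBB4 in through the group where it is high. When no filter was applied, the limma adjusted p over all 27958 genes was 0.159. ERBB4 was at most 1.12% of the receptor TPM in any library.

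**Figure D3:**
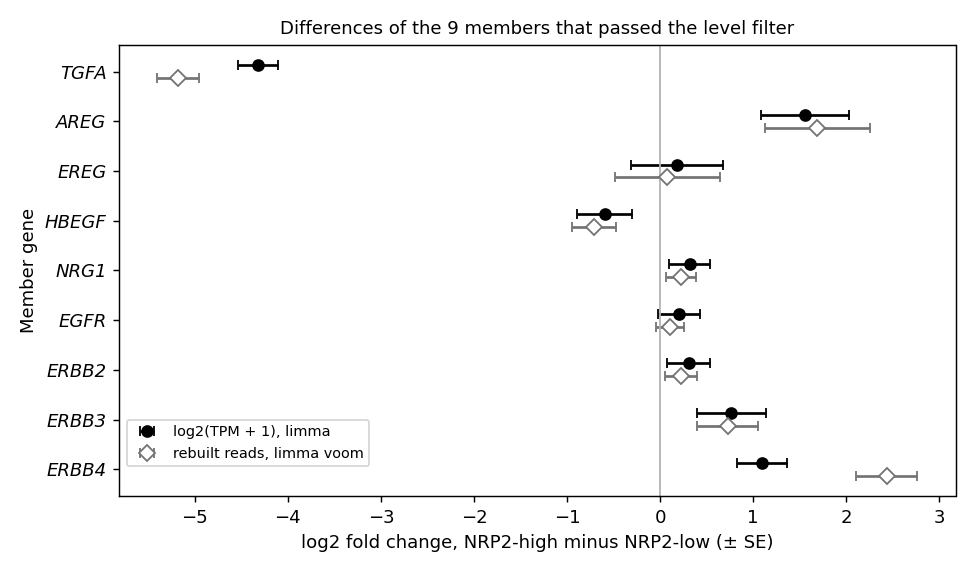
Log2 fold change of NRP2-high minus NRP2-low with its standard error for the 9 members that passed the filter, from log2(TPM + 1) (black circles) and from rebuilt reads (open diamonds). TGFA stands at -4.32 and -5.18, ERBB4 at 1.10 and 2.43, and the other members lie between -0.71 and 1.69 on both scales.

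Ranked by mean TPM in NRP2-high libraries, the members ran from EGFR through HBEGF, NRG1, ERBB2, AREG, ERBB3, EREG, ERBB4 and TGFA to BTC. The neighbouring pairs ERBB2 and AREG, AREG and ERBB3, EREG and ERBB4, and ERBB4 and TGFA overlapped between libraries. In NRP2-low libraries the order was HBEGF, EGFR, TGFA, NRG1, ERBB2, ERBB3, EREG, AREG, BTC and ERBB4. There HBEGF and EGFR, NRG1 and ERBB2, ERBB3 and EREG, and EREG and AREG overlapped. TGFA was thus the 9th of 10 members in NRP2-high and the 3rd in NRP2-low libraries, where it did not overlap with its neighbours in rank.

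The libraries of a group differed in the same way for most members. S40 was the lowest NRP2-high library for 8 of the 10 members, and S37 was the lowest NRP2-low library for 9 of the 10. The libraries with the lowest medians over all genes were the same, but whether this order was particular to the members was not tested. Over 14557 genes the median log2 ratio to the gene's mean was -0.31 in S37, against 0.04 in S35 and 0.10 in S36. It was 0.02 in S40, against 0.09 in S38 and 0.08 in S39. How often S40 or S37 was lowest over all genes was not counted. S38 was the highest NRP2-high library for 8 members, and S35 the highest NRP2-low library for 7. After the mitochondrially encoded genes were left out, S40 was lowest for 7 and S37 for 9 members, and after median log-ratio scaling both were lowest for 7. The part that the mitochondrial share of S37 has in the members' differences was not tested beyond the values given for each member without that library or those genes.

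AREG, EREG and BTC lie on chromosome 4 beside the CXC chemokine genes, which attract neutrophils. Of the 12 listed neighbours that were measured, 7 passed the filter. Of these 5 passed the threshold downward and 0 upward, beside 0.486% and 0.348% of all tested genes. The list was chosen with earlier results of these data known. CXCL6 is 1 of the 5 and reached 1 TPM in 3 NRP2-low libraries and 1 NRP2-high library. It passed the filter only through NRP2-low, so its values are a description. The median difference of the 7 on the log2 scale was -3.32, the value of CXCL6. CXCL1, CXCL8 and CXCL2 had log2 fold changes of -5.42, -5.14 and -4.49 (limma adjusted p = 2.15e-06, 0.000355 and 0.00681). CXCL3, the fifth, was at -1.46 (limma adjusted p = 0.0308). With a library left out CXCL2 was past the threshold in 5 of 6 fits, all but the one without S37 (adjusted p = 0.0551), and CXCL3 in 0 of them (0.0746 to 0.152). These chemokine genes are related copies, so the division of reads between them is uncertain. MTHFD2L, a mitochondrial folate enzyme gene that lies between CXCL2 and EREG, averaged 3.93 ± 0.974 TPM in NRP2-high cells and 4.79 ± 0.894 TPM in NRP2-low cells (± SD, n = 3 each), and its log2 fold change of -0.24 did not pass (limma adjusted p = 0.895). The EREG start lies 79.99 kb and the CXCL2 start 345.8 kb before the AREG start. Both were named, like MTHFD2L and CXCL3, after their values were seen.

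**Figure D4:**
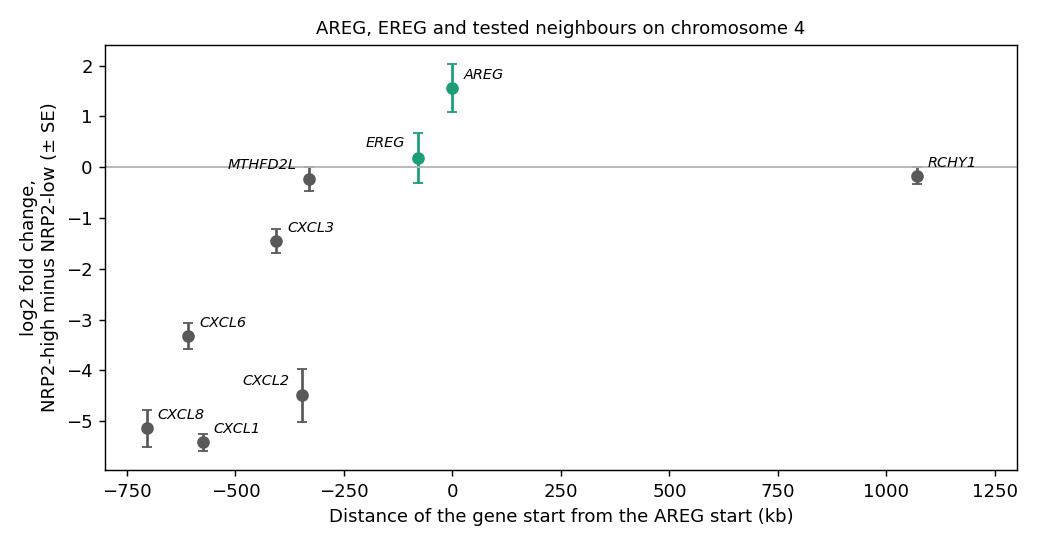
Log2 fold change of NRP2-high minus NRP2-low with its standard error against the distance of each tested gene's start from the AREG start, in kb. The chemokine genes lie between -1.46 and -5.42, while MTHFD2L, EREG (0.18) and RCHY1 lie near 0 and AREG at 1.56.

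The genes whose levels over the 6 libraries were most like those of TGFA were DNER, C3, C15orf48, FEZ1 and CSF3, with Pearson correlations of log2(TPM + 1) of 0.999, 0.997, 0.995, 0.995 and 0.995 among 9452 protein-coding genes. Nearly all of this likeness is the gap between the groups. DNER, C3 and C15orf48 were under 1 TPM in every NRP2-high library, and FEZ1 in S40, so these genes passed the filter only through NRP2-low. Their likeness to TGFA, itself chosen for its fall, is a description. FEZ1, a gene of axon outgrowth, measured 1.24, 1.80 and 0.576 TPM across NRP2-high libraries S38 to S40 and 42.3, 33.9 and 23.4 TPM across NRP2-low libraries S35 to S37. For EGFR the most similar genes were ARF1, C6orf62 and PCCB (0.995, 0.993 and 0.993), which like EGFR were lowest in S37. ARF1, a small GTPase of membrane traffic, measured 375, 315 and 315 TPM across NRP2-high libraries S38 to S40 and 313, 342 and 238 TPM across NRP2-low libraries S35 to S37. These correlations describe 6 points in 2 groups that share their libraries.

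Other genes of the pathway did not pass the threshold in any of 4 lists (limma, adjusted over all genes, and also by limma voom). At an unadjusted p under 0.05, 1 gene of the sheddase list (RHBDF1, iRhom1, a partner of ADAM17) and 0 genes of the other 3 lists passed, beside 7.00% of all tested genes. Of 9 sheddases and sheddase regulators that passed the filter 0 passed the threshold and 9 were positive. ADAM12 is 1 of the 9 and reached 1 TPM in 3 NRP2-high and 0 NRP2-low libraries. It passed the filter only through NRP2-high and had to be positive, so its sign is no result. The share of all tested genes above 0 was not computed. The median difference of the 9 was 0.47 on the log2 scale, beside 0.10 over all tested genes. It was 0.35 after median log-ratio scaling and 0.25 without S37. ADAM9 averaged 188 ± 53.2 TPM in NRP2-high cells and 135 ± 35.5 TPM in NRP2-low cells, and ADAM10, which releases EGF and BTC, averaged 67.4 ± 8.71 TPM in NRP2-high cells and 49.2 ± 12.5 TPM in NRP2-low cells (± SD, n = 3 each). ADAM17, the main sheddase of TGFA, AREG and HBEGF and named outside the rule, averaged 44.2 ± 12.6 TPM in NRP2-high cells and 29.5 ± 7.23 TPM in NRP2-low cells (log2 fold change 0.56, SE 0.26, adjusted p = 0.752).

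Of 10 tested inhibitors and turnover factors of the receptors 0 passed, with a median of 0.12. ERRFI1 (MIG6), a feedback inhibitor of EGFR, averaged 391 ± 178 TPM in NRP2-high cells and 475 ± 281 TPM in NRP2-low cells, and CBL, a ubiquitin ligase of active EGFR, averaged 68.2 ± 22.0 TPM in NRP2-high cells and 47.8 ± 18.4 TPM in NRP2-low cells (± SD, n = 3 each). Of 27 tested adaptors and kinases 0 passed, with a median of 0.13. SHC1, an adaptor of activated receptors, averaged 303 ± 39.3 TPM in NRP2-high cells and 280 ± 54.7 TPM in NRP2-low cells, and NRAS averaged 287 ± 15.2 TPM in NRP2-high cells and 283 ± 31.9 TPM in NRP2-low cells.

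Of 18 tested genes that respond to ERK or feed back on it 0 passed, with a median of 0.12, which was -0.28 without S37. Without S37 the medians of the other lists were lower too: 0.25 for sheddases, -0.001 for inhibitors and turnover factors, and -0.07 for adaptors and kinases. The median of all tested genes in that fit was not computed, so -0.28 has no background here. CCND1, cyclin D1, averaged 380 ± 70.3 TPM in NRP2-high cells and 452 ± 126 TPM in NRP2-low cells, and IER3 averaged 419 ± 142 TPM in NRP2-high cells and 323 ± 172 TPM in NRP2-low cells (± SD, n = 3 each). EGR1 and FOS, named after their values were seen, varied widely within the groups. For EGR1 the highest library was 6.64 times the lowest in NRP2-high and 12.2 times in NRP2-low. For FOS it was 14.2 and 10.9 times, so little can be read from the differences of these genes. The medians of the last 3 lists lie close to the median of all tested genes, 0.10, and were 0.01, 0.01 and 0.02 after median log-ratio scaling.

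**Figure D5:**
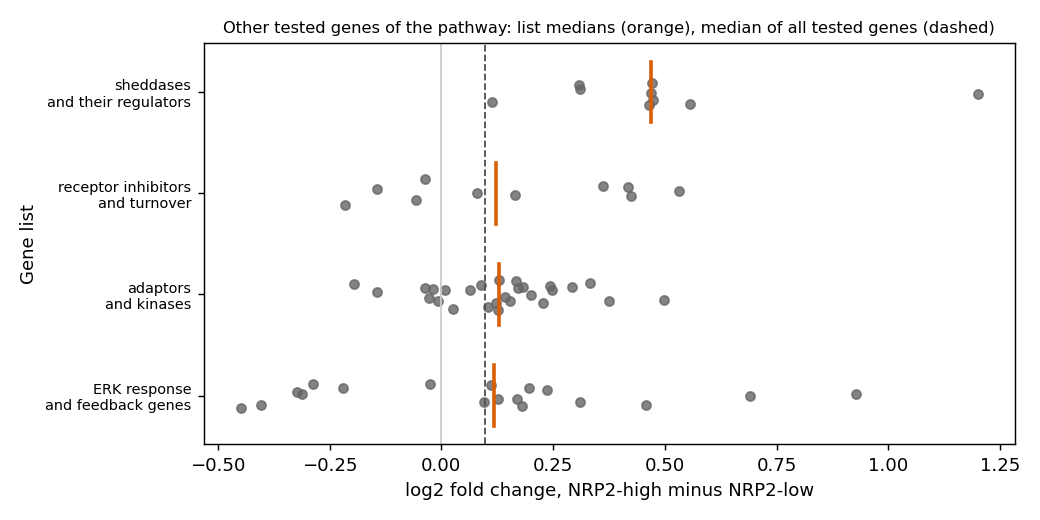
Log2 fold change of NRP2-high minus NRP2-low for each tested gene (point) of 4 pathway lists, with the list median in orange and the median of all 15214 tested genes as a dashed line. The sheddase list has a median of 0.47, and the other 3 lists have medians of 0.12 to 0.13, beside 0.10 for all genes.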

How the data were processed

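The authors deposited 1 table of TPM values with gene identifiers, positions and lengths. The submitters' processing notes name featureCounts (version 1.5.2), DESeq2 (version 1.20.0) and the build GRCh38.p12 (hg38), without their roles; no aligner or strand setting is given in the sources used here. All 27958 identifiers and gene starts match GENCODE release 29. The gene ends given above for EGFR and NRG1 are those deposited and differ from that release, while those of the other members match. The library's group comes from its column name, and the table's S numbers are in no label.

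Dividing TPM times gene length by the smallest such value above 0 of a library gave whole numbers (tolerance 0.001) for 100% of values, taken as reads. Replicates differed beyond sampling noise (chi-square per gene 19.5 to 99.6).

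Genes with at least 1 TPM in at least 3 of 6 libraries were tested on log2(TPM + 1) with limma 3.58.1 (R 4.3.3; eBayes with a variance trend), two-sided, Benjamini-Hochberg over all genes tested, threshold 0.05. The test was checked on simulated data. Alternatives were a pseudocount of 0.1, other filters, scaling, no mitochondrial genes, no trend, limma voom on rebuilt reads and leaving out each library. Members and lists were chosen with earlier results of these data known. The named genes were all members, NRP2, up to 4 called genes or else the 2 most abundant per list, and the genes most like TGFA (5) and EGFR (3) with a mean of at least 5 TPM. Sequences are RefSeq's. KLK3, KLK2, TMPRSS2, FOLH1, CD3E, COL1A2, CBLC, NRG3, PF4 and PF4V1 of the lists were not analysed here. Python 3.11.15 (pandas 2.3.3, numpy 2.4.6) was used for tables.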

Additional observations from a re-analysis of the deposited data

How the results depend on the processing

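Over the 9 members that passed the filter and 13 alternatives, 111 of 117 values kept their direction and their side of the threshold (for TGFA, which has no test, a shift within the spread between libraries). TGFA was at -4.98 with a pseudocount of 0.1 and -5.18 with limma voom on rebuilt reads. ERBB4 was at 2.43 with limma voom, where alone its adjusted p fell under the threshold, but it entered that fit through the group where it is high, so this is no test of a difference. EREG turned to -0.012 without S38 and -0.31 without S37, and EGFR to -0.018 without S37. With a library left out, log2 fold changes ran from -4.49 to -4.21 for TGFA, 1.21 to 2.09 for AREG, -0.31 to 0.65 for EREG, -0.84 to -0.29 for HBEGF, 0.13 to 0.53 for NRG1, -0.018 to 0.36 for EGFR, 0.11 to 0.51 for ERBB2, 0.37 to 1.07 for ERBB3 and 1.005 to 1.25 for ERBB4. The number of genes past the threshold, 127, was 74 without a filter, 200 with limma voom and 43 (without S36) to 97 (without S40) with a library left out. The NRP2-high mean of the receptor sum was 228 TPM without the mitochondrially encoded genes. No paired analysis was possible because the columns carry no replicate number of the labels. The precision of BTC, ERBB4 and AREG is limited by their read counts, and that of TGFA in NRP2-high by 118 reads.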
